A study of Homo sapiens with 72 samples.

Results

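The MYC and MAX network was followed at the mRNA level in U2OS, a human osteosarcoma cell line. Its 10 members, MYC, MAX, MXD1, MXI1, MXD3, MXD4, MNT, MLX, MLXIP and MGA, were chosen by name and matched by Ensembl gene identifier, and they were 10 of the 60279 genes listed. Population RNA-seq, made from poly A-selected RNA of whole wells, covered 72 wells of this 1 line collected after 12 h: 18 wells received DMSO, the solvent, and the other 54 received 1 of 6 compounds, in triplicate, at 100, 1000 or 10000 nM. The compounds were triptolide, which blocks transcription through a subunit of the general factor TFIIH, homoharringtonine, which blocks translation elongation at the ribosome, the kinase inhibitors nilotinib (BCR-ABL), MK-2206 (AKT) and pyrazolanthrone (JNK), and miglitol, an inhibitor of intestinal glucosidases. No genetic change was made in any group. The sources used here do not say whether the wells were separate cultures, so the p-values measure the spread between these wells, which may be technical.

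MYC is a transcription factor that binds E-box DNA, most readily CACGTG, as a dimer with MAX, and it raises the output of genes for growth, nucleotide synthesis and ribosome assembly. The MXD proteins, MXI1, MNT and MGA also take MAX as their partner and turn the same sites off, while MLX pairs with MLXIP (MondoA) to form a glucose-sensing arm with targets such as TXNIP and ARRDC4. The MYC message is known to be short-lived, and messages of this kind are known to vanish when transcription stops and to accumulate when translation is blocked.

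Depth, the sum of expected counts per well, had a median of 38.32 mil (mil, 10 to the power of 6), with 0.0704 mil in the smallest library and 68.27 mil in the largest. The libraries under 10 mil were triptolide 100 nM replicate 2, with 0.0704 mil, DMSO replicate 10, with 0.4589 mil, and triptolide 1000 nM replicate 1, with 9.52 mil. In the smallest library 3 counts were worth 36.3 CPM (counts per mil), so a member listed at 0 there was not detectable at this depth. All 48 calls of members against DMSO for triptolide and homoharringtonine were kept without these 3 libraries. Levels are given as CPM after TMM scaling (TMM CPM), which sets the bulk of messages level between wells, and differences as log2 fold changes with their SE on the same scale. The share of the 13 mitochondrial mRNAs, which a different polymerase makes, was 0.138 to 0.367% in DMSO and reached 1.154% at 10000 nM triptolide. The median change of all genes in triptolide was -0.16, -0.22 and -0.16 at the 3 doses, and scaling to these mRNAs shifted the change of a gene by a further -1.66, -2.47 and -2.76 in the median, so every triptolide change below is relative to the other nuclear messages. In whole-well RNA, fewer cells and less RNA per cell cannot be told apart. The summed level of 6 markers chosen for U2OS as a mesenchymal line was 4184 to 5922 TPM (transcripts per mil) in DMSO, against 310 to 450 TPM for 6 markers of other cell types.

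In DMSO the 10 messages spanned a wide range, and the order below is of levels per length, in TPM, as mean ± SD over 18 wells. MAX, the common partner, was highest at 146 ± 20.8 TPM. MYC followed at 103 ± 19.2 TPM and MLX, the partner of the glucose-sensing arm, at 46.0 ± 3.55 TPM. These levels were apart in each of the 18 wells. MXD3 stood at 37.7 ± 11.6 TPM, MLXIP at 29.5 ± 5.65 TPM and MXI1 at 19.8 ± 2.33 TPM. MXD4 at 13.2 ± 2.18 TPM and MGA, a very large repressor that carries a T-box as well, at 12.6 ± 6.19 TPM did not differ beyond their spread (adjusted p = 0.32, sign-flip permutation test over wells, two-sided, 9 neighbouring pairs). MNT, a repressor made in most cells, was at 6.82 ± 2.54 TPM and MXD1, the antagonist tied to differentiation, was lowest at 1.70 ± 0.518 TPM. The other 8 neighbouring pairs differed, with adjusted p between 4.5e-05, from the smallest p that 100000 resamples could give, and 0.014 for MLX above MXD3, which held in 13 of 18 wells.

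Triptolide lowered MYC at every dose, to 1.95 and 1.78% of its DMSO level at 1000 and 10000 nM. MYC in DMSO ran from 117 to 166 TMM CPM with a median of 135. At 100 nM triptolide the wells read 55.1, 48.4 and 52.5, at 1000 nM 5.17, 1.17 and 2.53, and at 10000 nM 2.06, 2.47 and 2.82. All 9 wells lay below every DMSO well, and the value of 48.4 came from the smallest library and rested on 4 counts. The log2 fold changes were -1.36 ± 0.13 (SE, adjusted p = 6.5e-09), -5.62 ± 0.25 (adjusted p = 1.1e-15) and -5.86 ± 0.17 (adjusted p = 2.2e-19), by edgeR's quasi-likelihood test with Benjamini-Hochberg adjustment over all genes. Pooled over wells, 39.6% of the DMSO level was left at 100 nM (95% Poisson interval 37.9 to 41.4%). At 1000 nM 1.95% was left (154 counts, 1.65 to 2.28%) and at 10000 nM 1.78% (191 counts, 1.54 to 2.06%); these intervals cover counting error only. At 10000 nM only 0.941% of the genes tested had a lower log2 fold change than MYC. The step from 100 to 1000 nM took MYC further down (log2 -4.27, adjusted p = 5.3e-07). From 1000 to 10000 nM the difference was -0.33 and did not pass the test.

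Homoharringtonine moved MYC in opposite directions at its lowest and highest dose. At 100 nM the 3 wells read 484, 523 and 626 TMM CPM, at 1000 nM 143, 96.7 and 105, and at 10000 nM 35.7, 34.9 and 34.0. All wells at 100 nM were above, and all wells at 10000 nM below, the 18 DMSO wells, while at 1000 nM 1 well lay among them and 2 lay below. MYC rose 3.98-fold at 100 nM (log2 1.99 ± 0.093, adjusted p = 3.2e-15), where 95.2% of genes had a lower change. It did not pass the test at 1000 nM (log2 -0.26 ± 0.12, adjusted p = 0.056), and passed it there under 5 of the other settings tried and without replicate 1 (-0.47). It fell at 10000 nM (log2 -2.01 ± 0.12, adjusted p = 1.5e-13). Each 10-fold of dose lowered MYC, by -2.31 from 100 to 1000 nM (adjusted p = 2.0e-05) and by -1.72 from 1000 to 10000 nM (adjusted p = 0.00085). The fitted trend was -2.01 per log10 of dose (adjusted p = 3.8e-07), lower than that of all but 0.185% of the genes tested. CASC11 lies on the opposite strand within the MYC locus, and whether the counting used strand is not given in the sources used here.

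**Figure D1:**
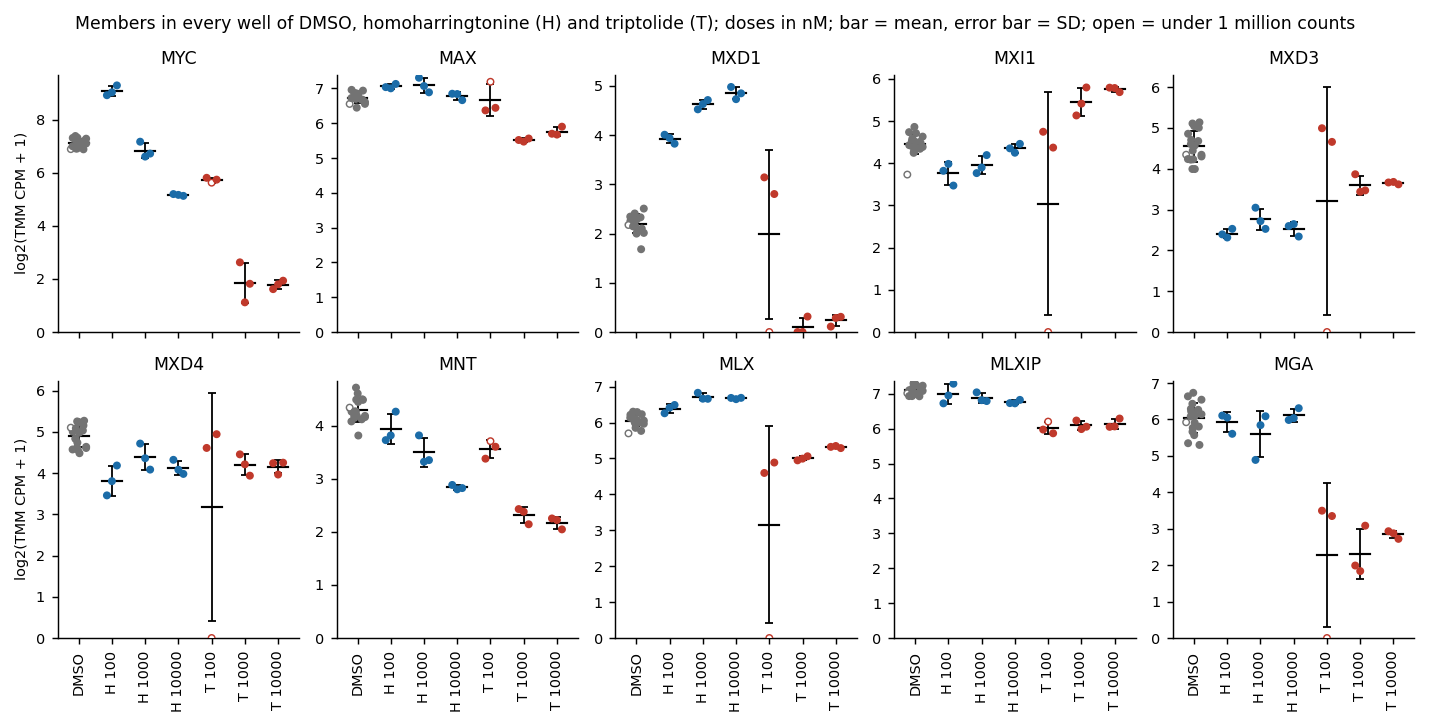
Log2(TMM CPM + 1) of each member (vertical axis) in every well of DMSO, homoharringtonine (H) and triptolide (T) at 100, 1000 and 10000 nM (horizontal axis), with mean and SD as bars and open points for the 2 smallest libraries. MYC stood above DMSO at 100 nM homoharringtonine (484 to 626 TMM CPM) and near 0 at the 2 higher triptolide doses (1.17 to 5.17), and the wide SD at 100 nM triptolide came from the library of 0.0704 mil counts. MXI1 stands above DMSO at these 2 triptolide doses on this scale, whereas it fell under scaling to mitochondrial mRNAs.

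Counted over the network, the members went mostly down in triptolide and both ways in homoharringtonine. At 100 nM triptolide 1 of 10 members rose and 5 fell, where 24.4% of all 18471 genes tested rose and 32.4% fell. At 1000 nM 1 rose and 9 fell (28.8% and 38.7% of all genes), and at 10000 nM again 1 rose and 9 fell (32.4% and 39.7%). With mitochondrial scaling the split was 0 and 10 at each dose. The members' median change was -0.56, -1.17 and -1.04, beside -0.16, -0.22 and -0.16 for all genes. In homoharringtonine 4 rose and 3 fell at 100 nM (31.3% and 32.5% of all 18786 genes), 3 rose and 5 fell at 1000 nM (35.1% and 33.6%), and 2 rose and 5 fell at 10000 nM (37% and 37.3%). These shares are near those of all genes, and the median changes were -0.13, -0.34 and -0.28 beside -0.03, -0.01 and -0.04. With mitochondrial scaling 2 rose and 3 fell, 1 rose and 4 fell, and 1 rose and 5 fell.

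MAX, without which MYC does not bind DNA, fell in triptolide at the 2 higher doses by smaller amounts than MYC. DMSO wells ran from 86.3 to 123 TMM CPM with a median of 105. Triptolide wells read 81.7, 145 and 86.0 at 100 nM, 44.8, 43.4 and 46.2 at 1000 nM and 50.9, 50.1 and 58.8 at 10000 nM. The high value of 145 belongs to the smallest library, and the wells of the 2 higher doses lay below all of DMSO. MAX did not pass the test at 100 nM (log2 -0.25, adjusted p = 0.105), and passed it without that library (-0.32). It fell at 1000 nM (-1.25 ± 0.10) and at 10000 nM (-1.04 ± 0.10). In homoharringtonine the wells read 130, 127 and 139, then 158, 133 and 118, then 114, 114 and 100. MAX rose at 100 nM (0.33 ± 0.090, adjusted p = 0.0025) and at 1000 nM (0.36 ± 0.099, adjusted p = 0.0024), was at 0.02 at 10000 nM (adjusted p = 0.82), and lost the call at 1000 nM without replicate 1 (0.23, adjusted p = 0.061). Both calls were also lost with mitochondrial scaling (0.21 and 0.31), the upper quartile (0.19 and 0.23) and the replicate block (0.23 and 0.26), and that at 100 nM with library sizes (0.10). The fits with a replicate block against DMSO kept DMSO wells 1 to 3 only. FNTB overlaps MAX on the opposite strand.

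MXD1 parted from MYC under homoharringtonine. DMSO wells ran from 2.21 to 4.68 TMM CPM with a median of 3.81. Homoharringtonine wells read 15.1, 14.3 and 13.2 at 100 nM, 22.0, 23.8 and 25.2 at 1000 nM and 30.5, 25.5 and 27.8 at 10000 nM. Every well was above every DMSO well, and at 1000 and 10000 nM MXD1 was up where MYC was not. MXD1 rose by log2 1.97 ± 0.12 (adjusted p = 6.1e-13), 2.69 ± 0.12 (adjusted p = 7.2e-16) and 2.91 ± 0.11 (adjusted p = 6.6e-17). Its trend per log10 of dose was 0.46, beside -2.01 for MYC. The step from 100 to 1000 nM was 0.68 (adjusted p = 0.0026) and did not pass without replicate 2.

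Under triptolide MXD1 rose at the lowest dose and was almost gone at the higher doses. The wells read 7.82, 0 and 5.98 TMM CPM at 100 nM, 0, 0 and 0.243 at 1000 nM, and 0.0794, 0.218 and 0.238 at 10000 nM. The 0 at 100 nM is from the smallest library, the other 2 wells of that dose lie above all of DMSO, and the 6 wells of the higher doses lie below it. At 100 nM MXD1 rose (log2 0.91 ± 0.18, adjusted p = 0.00019), though with mitochondrial scaling the value was -0.77. It fell at 1000 nM (-4.53 ± 0.37, adjusted p = 7.7e-11) and at 10000 nM (-4.36 ± 0.27, adjusted p = 3.5e-13). Pooled counts put it at 4.78% of DMSO at 1000 nM (10 counts, 95% Poisson interval 2.29 to 8.79%) and at 4.94% at 10000 nM (14 counts, 2.70 to 8.29%). SNRNP27 overlaps MXD1 on the same strand.

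MXI1, an antagonist also named MXD2, fell at the 2 lower homoharringtonine doses, where MXD1 rose, and on the TMM scale rose at the 2 higher triptolide doses, where MXD1 fell, a rise that turned negative with mitochondrial scaling. DMSO wells ran from 12.3 to 28.1 TMM CPM with a median of 21.4. Triptolide wells read 25.9, 0 and 19.7 at 100 nM, 34.1, 41.6 and 54.6 at 1000 nM and 54.4, 54.1 and 50.5 at 10000 nM. The wells of the 2 higher doses lay above every DMSO well. MXI1 rose relative to other messages at 1000 nM (log2 1.01 ± 0.12, adjusted p = 7.3e-08) and 10000 nM (1.25 ± 0.10, adjusted p = 6.2e-11), and was at -1.46 and -1.51 with mitochondrial scaling. Homoharringtonine wells read 13.1, 14.8 and 10.1, then 12.6, 13.9 and 17.3, then 19.4, 18.03 and 21.01. Only 1 well at 100 nM lay below every DMSO well, and the wells at 1000 and 10000 nM lay within the DMSO range. MXI1 fell at 100 nM (-0.76 ± 0.13, adjusted p = 2.8e-05) and at 1000 nM (-0.56, adjusted p = 0.00049), and was at -0.17 at 10000 nM (adjusted p = 0.19).

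Adenine- and uridine-rich motifs with the core ATTTA are known from the 3′UTRs of short-lived messages, MYC among them, so the 3′UTRs of the members were searched for ATTTA and for the longer TTATTTATT on the coding strand of the GRCh38 genome with GENCODE release 44. MYC held 6 copies of ATTTA in 1993 bases, MXD1 10 in 4661 bases and MXI1 4 in 2378 bases. MGA had 4, MAX and MLXIP 3 each, MLX 2, and MXD3, MXD4 and MNT none. Over 18839 genes the median was 2, in 3′UTRs with a median length of 1106 bases, and 68.94% held at least 1. Per kb of 3′UTR MYC held 3.01 copies, MXD1 2.145 and MXI1 1.68, beside a median of 1.57 over genes. TTATTTATT was in none of the 10, against 8.67% of genes. A window of 30 bases around a copy is shown, with ATTTA in capitals, for MXD1 at chr2:69938743-69938772 (plus strand) and MXI1 at chr10:110285128-110285157 (plus strand), since these 2 antagonists both hold the motif and differed in direction under triptolide on the TMM scale.
MXD1: ctttgaaagcagcATTTAagagcacttaac
MXI1: tcagaggacctgtATTTAagcaaatactta

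MXD3 and MXD4, which repress in the same way, fell in homoharringtonine at every dose and in triptolide at the 2 higher doses. MXD3 in DMSO ran from 14.9 to 34.2 TMM CPM (median 21.7), and the 9 homoharringtonine wells ran from 3.98 to 7.26, all below DMSO. It fell by log2 -2.41 ± 0.27 (adjusted p = 3.7e-08), -1.99 ± 0.27 (adjusted p = 6.4e-07) and -2.30 ± 0.26 (adjusted p = 2.1e-08). In triptolide MXD3 read 30.8, 0 and 24.2, then 13.6, 9.82 and 10.1, then 11.7, 11.8 and 11.3, within the DMSO range in the deeper libraries at 100 nM and below it at the higher doses (-1.08 ± 0.26 and -1.05 ± 0.24). At 100 nM it was at 0.19 and did not pass, and mitochondrial scaling gave -1.57. MXD4 in DMSO ran from 21.4 to 37.6 (median 29.1) and fell in homoharringtonine by -1.10 ± 0.20 (wells 10.0, 12.97 and 17.2), -0.52 ± 0.18 (25.3, 19.5 and 15.98) and -0.83 ± 0.17 (19.001, 15.9 and 14.8). The middle value, with 1 well inside the DMSO range and an adjusted p of 0.016, lost its call without replicate 2 (adjusted p = 0.053) or replicate 3 (adjusted p = 0.145). In triptolide MXD4 was at -0.18 at 100 nM, which did not pass, and fell by -0.74 ± 0.19 (-0.41 and not passing with the upper quartile) and -0.83 ± 0.18. RAB24 overlaps MXD3 on the same strand and PRELID1 on the other.

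MNT, which counters MYC in dividing cells, fell with dose under both compounds. DMSO wells ran from 13.1 to 25.4 TMM CPM with a median of 18.3. Homoharringtonine wells read 12.3, 13.1 and 18.3, then 13.1, 9.01 and 9.23, then 6.39, 5.98 and 6.10. Triptolide wells read 9.42, 12.1 and 11.2, then 4.39, 4.21 and 3.42, then 3.77, 3.67 and 3.14. The 12.1 is from the smallest library, where 3 counts were worth 36.3 CPM, so it carries little weight. The highest dose of each compound was clear of DMSO, and the lowest dose of homoharringtonine overlapped it. The changes in homoharringtonine were -0.36 ± 0.16 (adjusted p = 0.057), -0.85 ± 0.17 (adjusted p = 0.00011) and -1.64 ± 0.16 (adjusted p = 1.3e-09). In triptolide they were -0.87 ± 0.19 (adjusted p = 0.00048), -2.27 ± 0.19 (adjusted p = 1.7e-10) and -2.46 ± 0.18.

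MGA fell under triptolide at every dose. DMSO wells ran from 38.4 to 105 TMM CPM with a median of 67.2. Triptolide wells read 10.3, 0 and 9.19, then 2.97, 2.57 and 7.48, then 6.63, 6.33 and 5.599. No triptolide well reached the lowest DMSO well. MGA fell by -2.80 ± 0.34 (adjusted p = 1.8e-07), -3.83 ± 0.35 (adjusted p = 6.9e-10) and -3.49 ± 0.30 (adjusted p = 1.2e-10). In homoharringtonine it was at -0.15, -0.42 and -0.01, and none of these passed the test. MGA is the member that moved most with the GC slope across DMSO wells (r = -0.96 over 17 wells, DMSO replicate 10 left out). The r was 0.78 for MXD4, -0.77 for MXI1, 0.73 for MXD3, 0.69 for MNT, 0.68 for MAX and 0.55 for MLXIP. It was -0.42 for MXD1, 0.24 for MLX and 0.21 for MYC. The GC slope of a well is that of its log2 expression, less the DMSO mean, on GC content. This slope was -0.374 to 0.251 in DMSO, -0.500 to -0.367 at 10000 nM homoharringtonine and 0.0986 to 0.220 at 10000 nM triptolide. With the slope as a covariate MGA passed as lower in homoharringtonine too, at -0.50, -0.92 and -0.86. Of the 48 member calls in triptolide and homoharringtonine 47 were kept with this covariate.

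MLX and MLXIP, the partners of the glucose-sensing arm, were not moved alike. MLX in DMSO ran from 50.9 to 77.9 TMM CPM (median 66.0). Homoharringtonine wells read 75.5, 84.2 and 88.8, then 113, 100 and 100, then 102, 99.5 and 102, and all but 1 lay above DMSO. MLX rose by 0.33 ± 0.096 (adjusted p = 0.0041), 0.66 ± 0.094 (adjusted p = 1.3e-06) and 0.59 ± 0.090 (adjusted p = 2.9e-06). With mitochondrial scaling it was at 0.22, 0.59 and 0.29 and passed at none of these doses, and the call at 100 nM was also lost with library sizes (0.11), the upper quartile (0.19) and the replicate block (0.23). It fell in triptolide by -1.40 ± 0.16, -1.10 ± 0.11 and -0.81 ± 0.10, with wells of 23.2, 0 and 28.6, then 29.9, 30.9 and 32.4, then 39.0, 39.7 and 38.1. MLXIP in DMSO ran from 121 to 157 (median 137), and homoharringtonine wells from 105 to 155. Its changes there were -0.10 (adjusted p = 0.44), -0.24 ± 0.10 (adjusted p = 0.044, lost without replicate 2, without replicate 3, with the GC slope as a covariate, with DESeq2, with mitochondrial scaling and with the replicate block) and -0.39 ± 0.093 (adjusted p = 0.00069). In triptolide MLXIP fell by -1.19 ± 0.12, -1.04 ± 0.10 and -1.03 ± 0.10, with all 9 wells between 57.4 and 77.2. PSMC3IP overlaps MLX on the opposite strand.

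TXNIP, a brake on glucose uptake, and ARRDC4, a related arrestin, are the best known targets of MLXIP and MLX, and both rose in homoharringtonine and fell in triptolide at every dose. TXNIP in DMSO ran from 7.48 to 14.045 TMM CPM. Homoharringtonine wells read 46.3, 52.7 and 45.6, then 58.1, 78.4 and 83.6, then 89.4, 87.2 and 96.8, all far above DMSO. It rose by log2 2.26, 2.86 and 3.15, and fell in triptolide by -2.33, -5.40 and -5.94. In triptolide 2.54% of the DMSO level of TXNIP was left at 1000 nM (15 counts, 95% Poisson interval 1.42 to 4.18%) and 1.62% at 10000 nM (13 counts, 0.864 to 2.77%). ARRDC4 in DMSO ran from 3.68 to 8.22, and in homoharringtonine from 33.4 to 65.3. It rose by 2.89, 3.08 and 2.66 and fell in triptolide by -2.35, -2.97 and -3.32. At 10000 nM pyrazolanthrone TXNIP also rose (1.13, wells 22.7, 21.7 and 24.3) and so did ARRDC4 (0.70, wells 10.3, 9.76 and 9.53). Across DMSO wells TXNIP had r = -0.84 and ARRDC4 r = -0.91 with the GC slope (17 wells).

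Promoter windows of 250 bases before to 50 after the start, taken from RefSeq on GRCh38.p14, were found for TXNIP, ARRDC4 and the members other than MYC, which was not looked at here, and searched on both strands for the E-box CACGTG, which reads the same on both, and for CACGAG. The windows of these targets and of MLX are printed below, since they bear on the glucose-sensing arm, with CACGTG or CACGAG in capitals. TXNIP held 2 copies of CACGAG, beginning at -88 and -77 and with 5 bases between them. ARRDC4 held 1 CACGTG, beginning at -210, and MLX 1, beginning at -50. Of the other members' windows those of MNT (-193) and MXD4 (-238) held CACGTG, and the rest held neither. Over all 35116 windows 7.26% held CACGTG, 6.78% CACGAG and 0.32% at least 2 copies of CACGAG. The windows lie at chr1:145996530-145996829 (minus strand, TXNIP), chr15:97960453-97960752 (plus strand, ARRDC4) and chr17:42566850-42567149 (plus strand, MLX).
TXNIP: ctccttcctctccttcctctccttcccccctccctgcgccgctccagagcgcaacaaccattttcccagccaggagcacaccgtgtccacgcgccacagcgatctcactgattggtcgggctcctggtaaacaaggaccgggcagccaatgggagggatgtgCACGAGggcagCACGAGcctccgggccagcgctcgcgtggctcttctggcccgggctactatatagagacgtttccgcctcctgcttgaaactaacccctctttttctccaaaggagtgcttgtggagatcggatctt
ARRDC4: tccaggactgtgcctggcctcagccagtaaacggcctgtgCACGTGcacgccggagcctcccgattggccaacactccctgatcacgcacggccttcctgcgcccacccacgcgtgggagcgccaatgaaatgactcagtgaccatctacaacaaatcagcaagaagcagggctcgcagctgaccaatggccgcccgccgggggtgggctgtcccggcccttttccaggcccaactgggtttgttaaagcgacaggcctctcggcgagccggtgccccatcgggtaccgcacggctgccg
MLX: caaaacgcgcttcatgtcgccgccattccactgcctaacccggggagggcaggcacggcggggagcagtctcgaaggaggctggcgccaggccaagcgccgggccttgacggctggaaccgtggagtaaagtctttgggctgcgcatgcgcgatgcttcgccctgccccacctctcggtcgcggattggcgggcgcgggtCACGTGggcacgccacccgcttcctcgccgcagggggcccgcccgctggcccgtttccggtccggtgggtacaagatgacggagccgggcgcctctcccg

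The balance of MYC to its antagonists was highest at 100 nM homoharringtonine and lowest in triptolide at 1000 and 10000 nM. The ratio of MYC to the sum of MXD1, MXI1, MXD3, MXD4 and MNT, in TPM, ran from 0.863 to 1.72 in DMSO with a median of 1.40. In homoharringtonine the median went from 9.92 at 100 nM to 1.83 at 1000 nM and 0.512 at 10000 nM. At 1000 nM 2 of the 3 wells lay above the DMSO range, although 2 of the 3 lay below it in MYC itself (TMM CPM). At 100 nM homoharringtonine the summed antagonists were at 30.2, 33.1 and 31.9 TPM against 299, 329 and 364 TPM of MYC. In triptolide the median ratio was 0.444, 0.0257 and 0.0209. MYC over MAX had a median of 0.720 in DMSO, 2.22 at 100 nM homoharringtonine and 0.468 at 1000 nM. MYC was above MAX in each of the 3 wells at 100 nM homoharringtonine, where the ratio ran from 1.97 to 2.33.

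**Figure D2:**
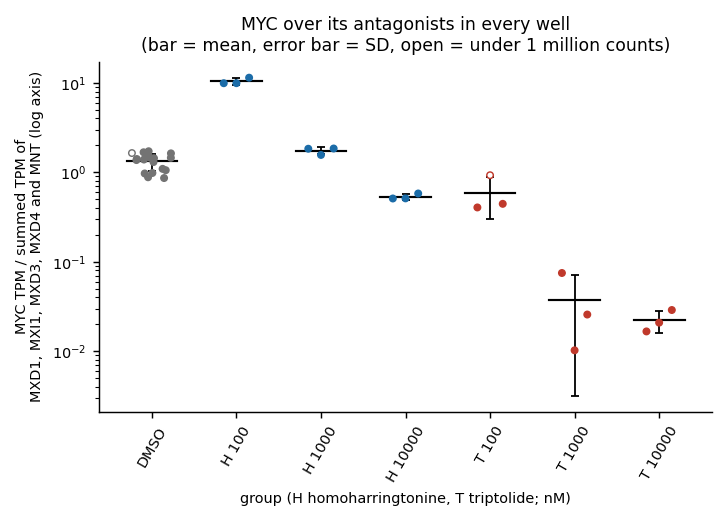
Ratio of MYC to the summed TPM of MXD1, MXI1, MXD3, MXD4 and MNT (vertical log axis) in every well of DMSO, homoharringtonine (H) and triptolide (T) by dose in nM (horizontal axis), with mean and SD, and open points for the 2 smallest libraries. The medians step down from 9.92 to 0.512 across homoharringtonine doses and reach 0.0209 at 10000 nM triptolide, beside 1.40 in DMSO.

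Lists of messages known to be short-lived and long-lived were set beside MYC. The short-lived list held FOS, FOSB, JUN, JUNB, EGR1, IER2, IER3, MCL1, ZFP36, ATF3, DUSP1, NFKBIA, KLF10 and CCNL1. Both lists were chosen with earlier results of these data known. Half-life was not measured, so the counts describe the listed genes only. Of all genes 31.3, 35.1 and 37% rose and 32.5, 33.6 and 37.3% fell across homoharringtonine doses. In triptolide 24.4, 28.8 and 32.4% of all genes rose and 32.4, 38.7 and 39.7% fell. At 100 nM triptolide the counts of short-lived messages given below are near these shares on the TMM scale. All 14 short-lived messages rose in homoharringtonine at each dose, with medians of 2.91, 3.84 and 3.45, so that MYC was near the lower end of them at 100 nM (1.99) and went the other way at 10000 nM (-2.01). FOSB rose by 6.15, 7.54 and 7.46 and FOS by 5.15, 6.34 and 6.29, both being subunits of AP-1. In triptolide 4 rose and 5 fell at 100 nM, 0 rose and 13 fell at 1000 nM and all 14 fell at 10000 nM, with medians of -0.19, -4.29 and -5.61 (1 rose and 10 fell at 100 nM with mitochondrial scaling), and MYC at -5.86 was close to the last of these. NFKBIA, the inhibitor of NF-kB, fell by -7.36 and JUN, another AP-1 subunit, by -6.09 at 10000 nM. Of 12 long-lived messages 11, 11 and 12 rose in triptolide on the TMM scale (medians 0.74, 1.04 and 1.196), while with mitochondrial scaling none rose and 10, 12 and 12 fell (medians -0.81, -1.44 and -1.62). RPLP0, a ribosomal protein, was at 1.36 and PGK1, a glycolytic enzyme, at 1.29 at 10000 nM on the TMM scale. In homoharringtonine 3, 1 and 0 of them rose and 2, 4 and 10 fell (0 rose and 1, 0 and 9 fell with mitochondrial scaling, and 1, 1 and 0 rose and 4, 7 and 10 fell with library sizes), with ACTB (actin) at -0.79 and PGK1 at -0.63 at 10000 nM. Of the members, MYC (-5.86), MXD1 (-4.36) and MGA (-3.49) were within the range of the short-lived list at 10000 nM triptolide, which ran from -7.36 to -3.11, and MXI1 (1.25) was within that of the long-lived list on the TMM scale, where its own value and the list both turn negative with mitochondrial scaling.

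**Figure D3:**
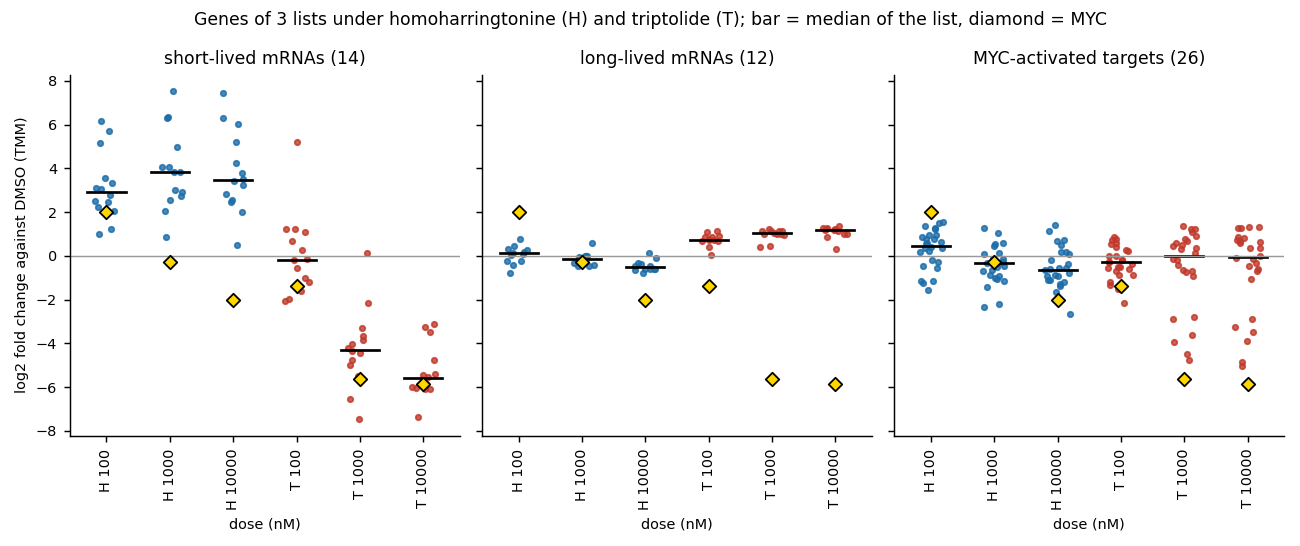
Log2 fold change against DMSO (vertical axis, TMM scale) of each gene of 3 lists under homoharringtonine (H) and triptolide (T) by dose in nM (horizontal axis), with the list's median as a bar and MYC as a diamond. MYC falls from 1.99 to -2.01 across homoharringtonine doses while the short-lived messages stay up (medians 2.91 to 3.45), and at 10000 nM triptolide it sits among them (-5.86 beside a median of -5.61). The long-lived messages lie above 0 in triptolide on this scale and fell with mitochondrial scaling.

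Genes that MYC is known to activate were counted at the same doses, which share the DMSO wells with MYC. Of 26, 16 rose and 6 fell at 100 nM homoharringtonine, where 31.3% of all genes rose and 32.5% fell. At 1000 nM 5 rose and 13 fell (35.1% and 33.6%), and at 10000 nM 5 rose and 17 fell (37% and 37.3%). With mitochondrial scaling these were 13 and 6, 4 and 8, and 4 and 17. The medians, 0.47, -0.32 and -0.63, stood beside -0.03, -0.01 and -0.04 for all genes and beside 1.99, -0.26 and -2.01 for MYC. RRS1 and NOP16, which act in ribosome assembly, were at 0.77, -1.08 and -1.65 and at 1.204, -0.66 and -1.11. CAD, the enzyme that starts pyrimidine synthesis, fell by -1.15, -2.35 and -2.67 and HSPE1, a mitochondrial chaperonin, by -1.55, -2.19 and -1.96, also at the dose where MYC rose. In triptolide 7 rose and 10 fell, then 9 and 10, then 10 and 10. Of all genes 24.4, 28.8 and 32.4% rose there and 32.4, 38.7 and 39.7% fell. The list's medians of -0.28, -0.02 and -0.05 were near those of all genes, while with mitochondrial scaling all 26 fell at each dose. RRS1 fell there by -5.05 and NOP16 by -4.86 at 10000 nM, whereas CAD was at -0.10, which did not pass, and HSPE1 rose by 0.86 on the TMM scale and fell, with the rest of the list, under mitochondrial scaling.

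Of 8 genes that MYC is known to repress 7 could be tested. In homoharringtonine 4 rose at each dose and 2, 2 and 3 fell, with medians of 1.54, 1.94 and 1.28 beside -0.03, -0.01 and -0.04 for all genes, of which 31.3, 35.1 and 37% rose and 32.5, 33.6 and 37.3% fell. GADD45A, a stress-induced growth arrest gene, rose by 4.78, 4.10 and 3.54 and its relative GADD45B by 2.86, 2.95 and 2.27. In triptolide 3 rose and 2 fell, then 2 and 5, then 2 and 5 (1 and 6, then 0 and 7 and again 0 and 7 with mitochondrial scaling), with CDKN1B, the cell cycle inhibitor p27, at -6.41 and GADD45B at -5.66 at 10000 nM.

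Partners of the network's proteins changed in both directions, as did genes at large, of which 31.3, 35.1 and 37% rose and 32.5, 33.6 and 37.3% fell across homoharringtonine doses and 24.4, 28.8 and 32.4% rose and 32.4, 38.7 and 39.7% fell in triptolide. Of 10 MYC cofactors 3 rose and 3 fell, 2 rose and 4 fell, and 3 rose and 5 fell across homoharringtonine doses, and 1 and 6, 2 and 5, and 3 and 5 in triptolide. The acetyltransferase KAT5 fell by -3.78 at 10000 nM triptolide and rose by 1.44 in homoharringtonine, HCFC1 and the acetyltransferase KAT2A fell by -2.48 and -2.27 in homoharringtonine, and the ATPase RUVBL1 rose by 0.99 in triptolide on the TMM scale. Of 9 corepressors that the MXD proteins recruit 3 rose and 3 fell, 3 and 3, and 5 and 3 in homoharringtonine, and 2 and 4, 4 and 4, and 3 and 3 in triptolide. The scaffold SIN3A fell by -3.73 and SAP30 by -1.43 at 10000 nM triptolide, and in homoharringtonine SUDS3 rose by 1.36 and RBBP4 fell by -0.92. Of 10 genes for MYC turnover 1 rose and 5 fell, 2 and 5, and 3 and 4 in homoharringtonine, and 1 and 5, 2 and 5, and 4 and 5 in triptolide. The ubiquitin ligase genes TRIM32 and FBXW7 fell by -4.38 and -3.33 at 10000 nM triptolide, and at 10000 nM homoharringtonine SKP2, another ubiquitin ligase subunit, fell by -4.34 and USP36, a deubiquitinase, rose by 1.46. With mitochondrial scaling none of these 3 lists had a riser in triptolide.

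Of the relatives of MYC, MYCL ran from 4.39 to 7.23 TMM CPM in DMSO and fell in homoharringtonine by -2.33, -1.36 and -1.13 and in triptolide by -2.66, -2.43 and -2.70. MYCN ran from 0 to 1.40 in DMSO, from 0.104 to 0.245 at 100 nM homoharringtonine and from 0.404 to 1.23 at its higher doses. In triptolide MYCN had at most 6 counts in a well and was at 0 in all wells at 1000 nM. MLXIPL, the relative of MLXIP, was at most 0.0771 in DMSO and too low to test. PVT1, the long noncoding RNA whose gene neighbours MYC, rose as MYC did at 100 nM homoharringtonine. It did not follow MYC at the higher doses or in triptolide. PVT1 in DMSO ran from 7.02 to 17.8, and in homoharringtonine its wells read 29.0, 29.9 and 29.0, then 26.7, 25.4 and 23.9, then 38.2, 39.3 and 35.0. It rose by 0.94, 0.72 and 1.26 there, and in triptolide it was at -0.02, which did not pass, and rose by 0.47 and 0.71 on the TMM scale, where the shift of all genes with mitochondrial scaling is larger than these values.

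Against each other at matched doses, triptolide and homoharringtonine differed for most members, and the wells share no controls. At 100 nM triptolide was higher for 3 members and lower for 6 (29.9% and 36% of all genes), at 1000 nM higher for 2 and lower for 7 (27.9% and 39%), and at 10000 nM higher for 2 and lower for 7 (41.4% and 47%). MYC was lower in triptolide by -3.27, -5.33 ± 0.47 (adjusted p = 2.1e-05) and -3.76 ± 0.12. MXD1 was lower by -0.97, -7.22 ± 0.55 and -7.18 ± 0.21, the widest gap of any member at the 2 higher doses. MXI1 was higher by 0.88, 1.56 and 1.51 and MXD3 by 2.69, 0.91 and 1.35 on the TMM scale, while mitochondrial scaling gave -0.76, -0.79 and -1.08 for MXI1 and, at 1000 and 10000 nM, -1.53 and -1.25 for MXD3. MXD4 was higher by 1.01 at 100 nM and at -0.68 with mitochondrial scaling. The MXD3 difference at 1000 nM had an adjusted p of 0.016 and missed the threshold without triptolide replicate 1 (0.74, adjusted p = 0.050). MGA was lower by -2.57, -3.48 and -3.39 and MLX by -1.65, -1.76 and -1.31. MNT at 100 nM (-0.43) and MXD4 at 1000 nM (-0.23) and 10000 nM (0.09) did not pass.

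Dose trends were fitted over the 9 wells of a compound. In homoharringtonine 4 of 10 members passed (44.3% of all genes in either direction), MYC at -2.01 per log10 of dose, MNT at -0.65, MXD1 at 0.46 and MXI1 at 0.28. In triptolide 5 of the 9 members tested passed (24.7% of all genes), MYC at -2.29, MNT at -0.84, MXD3 at -0.63, MXI1 at 0.53 (0.058 and not passing with mitochondrial scaling) and MAX at -0.45, and MXD3, MXI1 and MAX lost their calls in fits that left out a replicate. The trends of the 2 compounds differed for 2 members (41.4% of all genes), MXD1 by -3.53 ± 0.41 (adjusted p = 2.7e-06) and MXD3 by -0.63 ± 0.22 (adjusted p = 0.027), and the latter did not pass without replicate 1, 2 or 3. For MYC the difference was -0.25 (adjusted p = 0.58). Between 100 and 1000 nM triptolide 6 of 9 members changed (40.3% of all genes), MYC, MNT (-1.40), MXD3 (-1.27), MGA (-1.08), MAX (-1.003) and MXI1 (0.95), and MGA lost its call without replicate 1 or 2. Between 1000 and 10000 nM triptolide none did by edgeR, and 0.128% of all genes did. Between 100 and 1000 nM homoharringtonine MYC and MXD1 changed (29.4% of all genes), and between 1000 and 10000 nM MYC alone (3.37% of all genes), with MNT at -0.76 (adjusted p = 0.066).

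**Figure D4:**
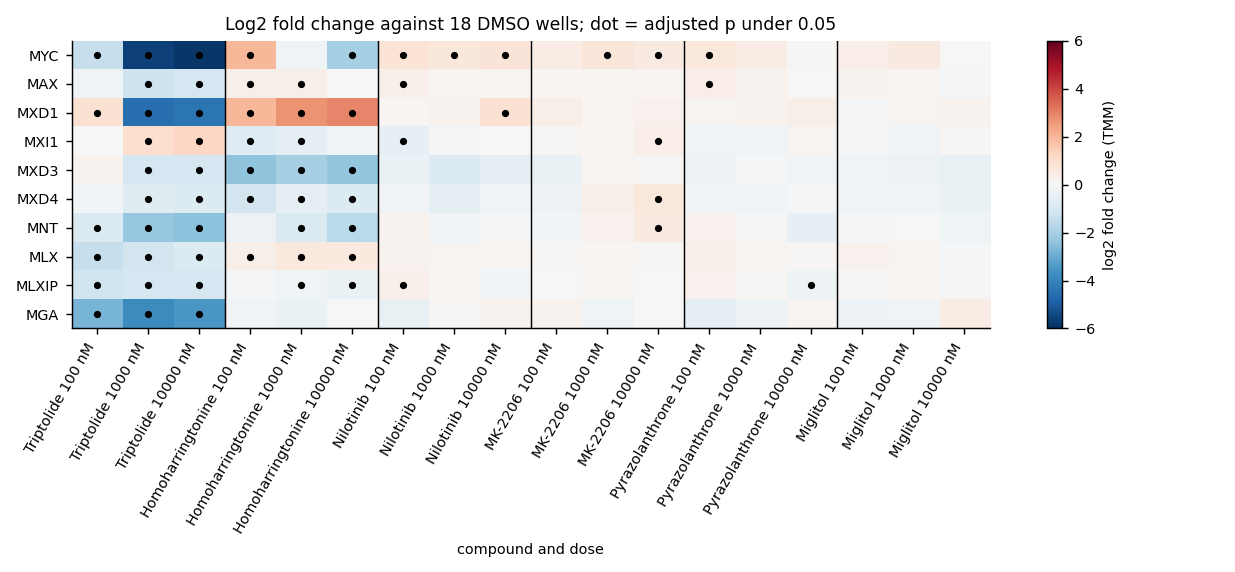
Log2 fold change against the 18 DMSO wells (colour, TMM scale) of the 10 members (rows) for each compound and dose (columns), with a dot where the adjusted p is under 0.05. The triptolide columns are blue except MXI1 at all 3 doses and MXD1 and MXD3 at 100 nM, all of which were below 0 with mitochondrial scaling, and MXD1 is the reddest member in homoharringtonine (up to 2.91).

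The other 4 compounds moved few members, and MYC was the one that passed most often. In nilotinib MYC rose at 100 nM (0.83), 1000 nM (0.69) and 10000 nM (0.76), with wells of 208, 284 and 247, of 218, 266 and 191 and of 236, 237 and 225 TMM CPM. All 9 wells lay above the highest DMSO well of 166. The calls ended with the replicate block at 100 and 1000 nM (0.72 and 0.55) and with mitochondrial scaling at 1000 and 10000 nM (0.83 and 0.049). The fits with this block also had only DMSO wells 1 to 3 as controls, in place of all 18. In MK-2206 MYC rose at 1000 nM (0.72, wells 227, 227 and 236) and at 10000 nM (0.52, wells 220, 192 and 185), and in pyrazolanthrone at 100 nM (0.64, wells 205, 222 and 201), and these 3 calls ended both with the replicate block (0.63, 0.41 and 0.50) and with mitochondrial scaling (0.91, 0.27 and 0.87). In miglitol MYC did not pass at any dose (0.41, 0.56 and 0.0099 at 100, 1000 and 10000 nM). The 0.56 at 1000 nM (adjusted p = 0.073, edgeR's quasi-likelihood test) is above the 0.52 that passed at 10000 nM MK-2206. MYC wells at 1000 nM miglitol read 173, 255 and 180, also above all of DMSO, and 2 of 3 wells at 100 nM did so (140, 220 and 187). MYC did not pass at 1000 nM pyrazolanthrone (0.44) or 100 nM MK-2206 (0.47) either. Its wells there lay above all of DMSO in 3 of 3 and 2 of 3 cases. How many other genes had wells placed like this was not counted. At 10000 nM miglitol (144, 149 and 134) and pyrazolanthrone (147, 162 and 144) overlapped DMSO.

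Counts of members for these compounds stand beside low shares of genes. Of the 10 members 4 passed at 100 nM nilotinib (9.17% of all genes in either direction), MYC, MAX (0.33), MLXIP (0.30) and MXI1 (-0.50), 1 at 1000 nM (4.15%) and 2 at 10000 nM (14.5%), MYC and MXD1. MXD1 rose there by 0.92 with wells of 8.18, 7.09 and 5.41, above its DMSO range, the only rise of MXD1 in these 4 compounds. In MK-2206 none passed at 100 nM (0.092%), 1 at 1000 nM (1.45%) and 4 at 10000 nM (3.18%), MYC, MXD4 (0.61), MNT (0.52) and MXI1 (0.42). In pyrazolanthrone 2 passed at 100 nM (4.84%), MYC and MAX (0.39), none at 1000 nM (0%) and 1 at 10000 nM (7.76%), MLXIP (-0.33). In miglitol none passed at 100, 1000 or 10000 nM (0% of genes each). The dose trend of pyrazolanthrone passed for MYC, MAX, MLXIP and MNT, all downward (19.9% of all genes), that of miglitol for MGA, upward at 0.40 (17%), and none passed for nilotinib (2.95%) or MK-2206 (0.0286%). The GC slope went with dose in both, at -0.0117 to 0.2359 at 100 nM and -0.3198 to -0.2175 at 10000 nM miglitol. In pyrazolanthrone it was -0.0055 to 0.2944 and -0.269 to -0.0838. No trend was fitted with this slope as a covariate, so dose and this library trait cannot be told apart in these trends.

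**Figure D5:**
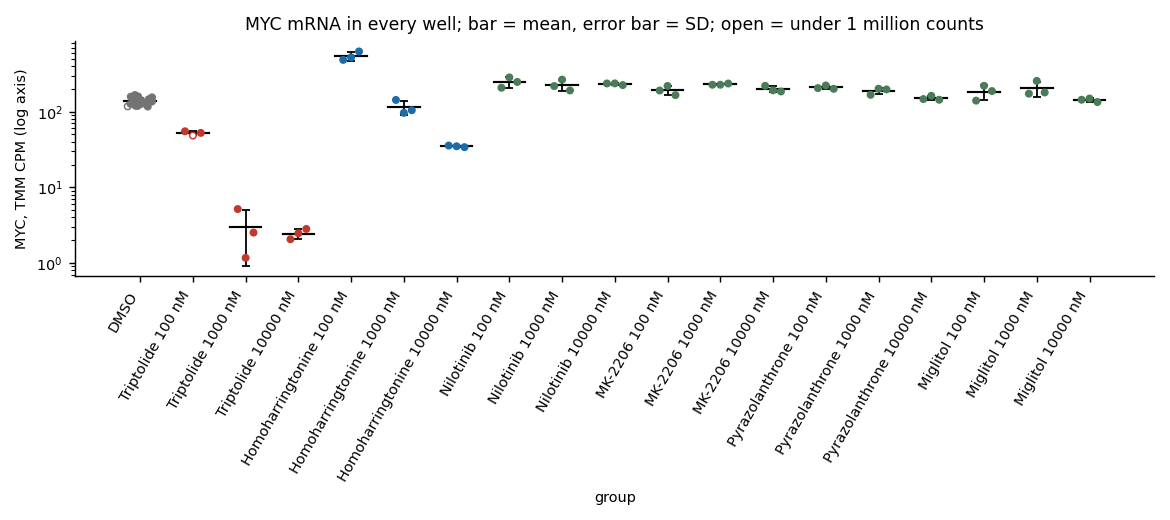
MYC in TMM CPM (vertical log axis) in every well of the 19 groups (horizontal axis), with mean and SD. Beside 117 to 166 in DMSO, MYC lay between 34.0 and 626 in homoharringtonine and between 1.17 and 55.1 in triptolide. All 9 nilotinib wells lay above the DMSO wells. So did all wells at 1000 and 10000 nM MK-2206, 100 and 1000 nM pyrazolanthrone and 1000 nM miglitol.

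Likeness to MYC was measured as Pearson's r of log2 group means over the 19 groups, among 9373 genes, as a description in which the triptolide groups carry most of the spread and all groups share their depth and scaling. The genes most like it were MRPS18B (r = 0.984), C11orf68 and CDYL (0.982 each), TWNK (0.981) and FJX1 (0.981). MRPS18B, a mitochondrial ribosomal protein, was at 112 ± 9.49 TMM CPM in DMSO, 150 ± 12.8 at 100 nM and 81.9 ± 2.14 at 10000 nM homoharringtonine, and 40.4 ± 1.23 at 10000 nM triptolide. These 4 levels stand in the order of those of MYC, with smaller steps. Among the members r with MYC was 0.931 for MAX, 0.906 for MNT, 0.831 for MLXIP, 0.789 for MGA, 0.562 for MXD1, 0.487 for MLX, 0.368 for MXD4 and 0.258 for MXD3, and -0.574 for MXI1.

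Markers of the cells also moved in these groups. The summed U2OS markers fell to 1476 to 1560 TPM at 10000 nM homoharringtonine, where 6 of 6 fell, COL1A1 (-3.56) and SPARC (-2.62), both of bone matrix, the most. At 10000 nM triptolide 5 of 6 rose and 1 fell on the TMM scale, where mitochondrial scaling had all 6 fall, the largest values being those of THY1 (1.61) and SPARC (1.59), with sums of 6512 to 7840 TPM. The sum of 6 markers of other cell types was 978 to 1009 TPM at 10000 nM homoharringtonine and 165 to 184 TPM at 10000 nM triptolide. ALB, the liver marker, and PTPRC, the leukocyte marker, were at most 0.0382 and 0.269 TMM CPM in DMSO. ALB rose to between 0.341 and 0.590 TMM CPM and PTPRC to between 0.281 and 0.341 at 10000 nM homoharringtonine. PTPRC was at 0.546 to 0.635 and CDH1, the epithelial cadherin, at 1.82 to 3.02 TMM CPM at 10000 nM triptolide, beside at most 0.959 for CDH1 in DMSO. ALB, PTPRC and CDH1 were picked by the size of their change, and none of the levels given for them passed 3.02 TMM CPM. The list of other cell types also held EPCAM, KRT18 and PECAM1, whose levels are not given here. The list's sum, 310 to 450 TPM in DMSO, is far above the levels given for the picked markers. In triptolide this sum went down where PTPRC and CDH1 read higher on the TMM scale. With mitochondrial scaling 0 of the 5 such markers tested rose and 3 fell at 10000 nM triptolide. At 10000 nM homoharringtonine 4 of 6 rose and 1 fell with that scaling. The part of the markers in the changes of the members was not tested.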

How the data were processed

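Bulk RNA-seq libraries of 72 U2OS wells in 19 groups were used, grouped by the sample labels. The members and gene lists were chosen with earlier results of these data known. The deposited expected counts are the authors' RSEM estimates of reads per gene on GRCh38, not normalized; the version, the annotation and the strand setting are not given in the sources used here. The deposited TPM values come from the authors' RSEM run, are corrected for the length of a gene and add up to the same total in every well. The FPKM values, also deposited by the authors, are corrected for length and for mapped reads; they served only as an alternative for the order of levels. Per the labels, HTSeq and DESeq2 were also among the tools of the authors. Spike-in rows, 92 in number and 0.0158 to 1.1215% of the counts of a library, were left out of library sizes and tests.

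Rounded expected counts went into edgeR 4.0.16 under R 4.3.3 (TMM, filterByExpr, glmQLFit and glmQLFTest, Benjamini-Hochberg adjustment over all genes tested, threshold 0.05). Each compound and dose was fitted with the 18 DMSO wells, triptolide with homoharringtonine at each dose, trends on log10 dose over 9 wells, their difference over 18 wells, and dose steps over 9 wells. DESeq2 1.42.0, other scalings, other filters, a replicate block, leaving out wells, 1 fit over all wells and, added after seeing the data, a GC slope covariate were the alternatives. Against DMSO the fits with a replicate block used DMSO wells 1 to 3 only. The GC slope of a well is that of its log2 expression, less the mean of the DMSO wells, on the GC content of a gene's transcript. The order of TPM levels was tested on log2(TPM + 0.1). Counting intervals are 95% exact Poisson intervals; they cover counting error only. The fits were tested on simulated counts. Among the 207 pairs of wells within a group none was found to be a copy (lowest chi-square per degree of freedom 1.35); pairs across groups were not checked.

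All 10 members were named. The genes related to MYC, the 2 targets of MLXIP, the short-lived list and the markers of other cell types were named in full. Values of single genes are given for the relatives of MYC, the 2 targets and the 5 genes most like MYC. Of each other list they are given for the 2 genes with the largest change at 10000 nM triptolide and the 2 at 10000 nM homoharringtonine. The labels give the middle dose as 1000 nM, and this was used. Gene symbols and positions came from GENCODE release 44 for GRCh38, in which 56104 of the listed genes were found.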

Additional observations from a re-analysis of the deposited data

Results flagged for a closer look

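The trends of triptolide and homoharringtonine on log10 dose differed for MXD1, by -3.53 ± 0.41 per log10 of dose (edgeR's quasi-likelihood test, adjusted p = 2.7e-06). The difference was larger than the spread between wells with MXD1 rising over homoharringtonine doses in 9 wells and at or near 0 in the 6 wells of the higher triptolide doses. The trends also differed for MXD3, by -0.63 ± 0.22 (adjusted p = 0.027), and this difference did not pass when any 1 of the replicates 1 to 3 was left out.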

How the results depend on the processing

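Of 48 member calls in triptolide and homoharringtonine against DMSO, 47 were kept with DESeq2, 46 with library sizes, 44 with the upper quartile, 38 with mitochondrial scaling, 48 with no filter, 48 with 1 fit over all wells, 47 with the GC slope and 44 with the replicate block. With mitochondrial scaling MXI1 in triptolide was at -1.64, -1.46 and -1.51, MXD1 and MXD3 at 100 nM at -0.77 and -1.57, and MLXIP from 100 to 1000 nM at -0.66. Against homoharringtonine that scaling put MXI1 at -0.76, -0.79 and -1.08, MXD4 at -0.68 (100 nM) and -2.51 (10000 nM, -0.49 with library sizes) and MXD3 at -1.53 and -1.25.

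MYC at 1000 nM homoharringtonine passed the test with library sizes (-0.41), the upper quartile (-0.39), no filter (-0.29), at least 10 counts in every well (-0.28) and without the 3 shallow libraries (-0.27), and ran from -0.47 to -0.16 with a well left out. From 1000 to 10000 nM it was at -2.02 with mitochondrial scaling and from -1.85 to -1.56 with a well left out. MYC missed the threshold with the replicate block in MK-2206 (0.63 at 1000 nM, 0.41 at 10000 nM), nilotinib (0.72 at 100 nM, 0.55 at 1000 nM) and pyrazolanthrone (0.50 at 100 nM), and with mitochondrial scaling in MK-2206 (0.91 and 0.27), nilotinib (0.83 at 1000 nM, 0.049 at 10000 nM) and pyrazolanthrone (0.87). Against DMSO the fits with a block used DMSO wells 1 to 3 only, so the block and the loss of controls cannot be told apart. The cause was not tested. In the fits with a block, same-numbered wells did not deviate together on average (mean r -0.049 between compound and DMSO wells, 0.0098 between triptolide and homoharringtonine). Single r ran from -0.835 to 0.835 and from -0.567 to 0.631, so these means do not settle whether the numbers pair the wells. Across doses of 1 compound the mean r for same and other numbers was 0.252 and -0.141 in nilotinib, 0.239 and -0.126 in pyrazolanthrone, 0.124 and -0.067 in miglitol, and negative for same numbers in the other 3 compounds.

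Of counts, members called at 100 nM triptolide were 10 with mitochondrial scaling and 1 with at least 10 counts in every well, a filter that leaves fewer genes to test, and 5 with mitochondrial scaling at 1000 nM homoharringtonine. Short-lived messages that fell were 10 with mitochondrial scaling and 0 with that filter at 100 nM triptolide, and 6 and 8 with that filter at 1000 and 10000 nM. Long-lived messages that rose were 0 at each triptolide dose with mitochondrial scaling and 4 at 100 nM with that filter. MYC-activated genes that rose at 1000 nM homoharringtonine were 3 with library sizes, the upper quartile, no filter, without shallow libraries, with the GC slope or in 1 fit, and 2 to 5 with a well left out, and those that fell were 8 with mitochondrial scaling. At 10000 nM 2 rose with the GC slope. Depth limits MXD1 and TXNIP in triptolide, where at most 15 counts in all were left at the higher doses.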
